A study of Mus musculus with 9 samples.

Results

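The genes T, Pax7, Brinp2, Magel2, Trpa1 and Slc6a7 were examined across 9 mouse tumours, as 6 of 17134 genes listed in every library. They were picked because their RNA showed the largest falls seen with both shRNAs against Gad1, so their difference between knockdown and control tumours is the selection itself and is described below without a test. The tumours grew under the skin of C57BL/6 mice from MC38, a mouse colon adenocarcinoma line, and were taken 20 days after implantation. All cells had been infected with lentivirus and selected with puromycin, and stably carried a non-targeting shRNA (NTC), or shA or shB, which are directed at Gad1, with 3 tumours in each group. The product of Gad1 turns glutamate into the transmitter GABA. The tumours were bulk tissue, holding the injected cells together with cells of the host. No source used here says whether the injected cells were a pool or 1 clone. The groups differ in the separately selected cells as well as in the shRNA, and the part of either in the falls was not tested.

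The 6 genes belong to different families and share no pathway. T (Brachyury) and Pax7 are transcription factors of development: T is the founding T-box factor of the primitive streak, notochord and tail bud, and Pax7 is a paired-box factor of muscle satellite cells and neural crest. Magel2 is an imprinted gene, expressed from the paternal copy, whose protein works with the ubiquitin ligase TRIM27 in endosomal protein recycling. Trpa1 is a cation channel of sensory neurons opened by pungent irritants, Slc6a7 is a proline transporter of brain synapses, and Brinp2 is a protein of the nervous system.

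The bases just before the annotated RefSeq start are shown here for 3 of the 6 genes, T, Pax7 and Magel2, and not for the rest. The genes were chosen because their RNA fell with both shRNAs, so these 250-base windows are shown only as a description. Each is written 5′ to 3′ on the gene's own strand in build GRCm38.p6. T lies at chr17:8434173-8434422 on the plus strand, Pax7 at chr4:139832969-139833218 on the minus strand and Magel2 at chr7:62376729-62376978 on the plus strand. Capitals mark matches, on either strand, to 4 short motifs, none of which overlapped another match here. The TATA element was searched as TATAAA. The GC box was searched as GGGCGG, the TCF/LEF core as CTTTGA and the site of T-box factors as GGTGTGA.

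T: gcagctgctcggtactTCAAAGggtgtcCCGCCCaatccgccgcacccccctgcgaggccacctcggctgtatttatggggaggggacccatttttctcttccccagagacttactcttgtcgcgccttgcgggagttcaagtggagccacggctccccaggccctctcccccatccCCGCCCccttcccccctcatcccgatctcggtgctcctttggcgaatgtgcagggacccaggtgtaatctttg
Pax7: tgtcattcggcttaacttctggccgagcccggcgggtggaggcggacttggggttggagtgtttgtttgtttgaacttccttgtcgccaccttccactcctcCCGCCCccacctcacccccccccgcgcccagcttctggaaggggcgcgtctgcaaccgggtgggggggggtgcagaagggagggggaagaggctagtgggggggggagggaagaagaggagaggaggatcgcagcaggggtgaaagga
Magel2: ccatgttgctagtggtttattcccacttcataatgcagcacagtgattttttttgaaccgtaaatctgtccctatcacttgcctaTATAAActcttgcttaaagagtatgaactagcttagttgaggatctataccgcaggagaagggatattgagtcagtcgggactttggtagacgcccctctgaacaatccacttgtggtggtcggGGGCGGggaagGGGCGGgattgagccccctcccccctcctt

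The T window held 2 GC boxes and 1 TCF/LEF core, which no other window of the 3 held. The Pax7 window held 1 GC box. The Magel2 window held 1 TATA element, at -165 from the annotated start, and 2 GC boxes. Among 32851 windows of the same length, 32.7% held a GC box, 13.8% a TCF/LEF core, 12.4% a TATA element and 3.33% the T-box site, which matched in none of the 3. The windows of T and Pax7 held 14 and 13 CpG against a median of 6, and 70.6% and 68.5% of windows had fewer. Their G and C stood at 62.8% and 65.2% against a median of 52.4%, and 78.3% and 83.0% of windows were lower. The Magel2 window had 7 CpG and 48.8% G and C. No motif was common to the 3 windows other than the GC box, and a match of letters does not show that a factor binds there.

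The values are read counts that the authors divided by 1 factor per library, here called normalized reads. Libraries held 18373748 to 24918174 reads assigned to genes. Gad1 itself stood at 291 ± 31.8 normalized reads in NTC tumours, 28.8 ± 19.1 in shA tumours and 29.2 ± 11.3 in shB tumours (SD, n = 3 each), a log2 difference of -3.43 (SE 0.41, limma adjusted p = 0.000643; exact two-sided permutation test p = 0.0119 over 84 assignments). Some libraries stood apart from their groups. NTC replicate 1 held 0.284% haemoglobin reads, against 0.0306% or less elsewhere, and shA replicate 1 held 6.6% mitochondrial reads, against 1.49% or less elsewhere. In shA replicate 1, 653 listed genes were at 0, and in NTC replicate 1, 422, against 155 or fewer elsewhere. Chi-square over its degrees of freedom was 91.6 and 107 for shB replicate 1 against its group. It was 9.77 between shB replicates 2 and 3. For shA replicate 1 it was 143 and 142, against 17.5 between shA replicates 2 and 3. No source used here says whether the 3 tumours of a group came from separate mice or infections, and every p-value measures the spread between these libraries.

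T had 243, 289 and 555 normalized reads in NTC replicates 1, 2 and 3. With shA it had 6.54, 0.935 and 32.0, and with shB 8.71, 30.5 and 18. Every knockdown tumour lay far below every control. The spread among the shA tumours, 34.2-fold from lowest to highest, was wider than that among the controls, 2.28-fold. The lowest shA value, in replicate 2, was a single read, and the 34.2-fold spread rests on it. The mean was 362 ± 168 in the controls, 13.1 ± 16.5 in shA tumours and 19.1 ± 10.9 in shB tumours (SD, n = 3 each), so that the 6 knockdown tumours kept 4.44% of the control level. In bulk tissue, fewer cells of a type and less RNA per cell cannot be told apart, here and for each gene that follows.

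Pax7, the other developmental factor, had 228, 97.4 and 126 normalized reads in the 3 controls. It had 3.27, 6.54 and 9.02 with shA and 3.48, 7.86 and 3.38 with shB. The lowest control was 10.8-fold above the highest knockdown tumour, the widest gap of the 6 genes. The knockdown mean was 3.72% of the control mean of 150 ± 68.5 (SD, n = 3), also the smallest share of the 6. NTC replicate 1 was the highest control for Pax7, and also for Brinp2, Magel2 and Slc6a7.

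Brinp2 had 308, 175 and 176 normalized reads in the controls, 21.8, 5.61 and 10.7 with shA and 5.22, 4.91 and 1.13 with shB. Controls and knockdown tumours were separated by 8.02-fold, and the 3 shA tumours also lay above the 3 shB tumours. Brinp2 kept 5.78% of its control mean with shA and 1.71% with shB.

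Magel2 was the most even of the 6 in the controls, at 107, 106 and 103 normalized reads (a coefficient of variation of 2.23%). In knockdown tumours it spread widely, with 1.09, 10.3 and 23.8 in the shA tumours and 0.871, 7.86 and 2.25 in the shB tumours. The groups did not overlap, with the lowest control 4.32-fold above the highest knockdown tumour. The lowest values, in shA replicate 1 and shB replicate 1, were those of single reads.

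Trpa1 was the most abundant of the 6, with 667, 784 and 732 normalized reads in the controls. It had 21.8, 54.2 and 187 with shA and 38.3, 34.4 and 46.2 with shB. It was the only gene of the 6 that stayed above 20 in all 9 libraries, and it had the narrowest gap, 3.57-fold between the lowest control and shA replicate 3. The shB tumours stood close together at 39.6 ± 6.00, whereas shA averaged 87.6 ± 87.5 (SD, n = 3 each).

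Slc6a7, the proline transporter, had 194, 74.3 and 114 normalized reads in the controls. It had 0, 15.9 and 10.7 with shA and 11.3, 11.8 and 0 with shB. The tumours at 0 were shA replicate 1 and shB replicate 3, and no other value of the 6 genes was 0. At most 3 reads would go unseen at a count of 0, for counting error alone, so these tumours are not shown to lack the RNA.

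**Figure D1:**
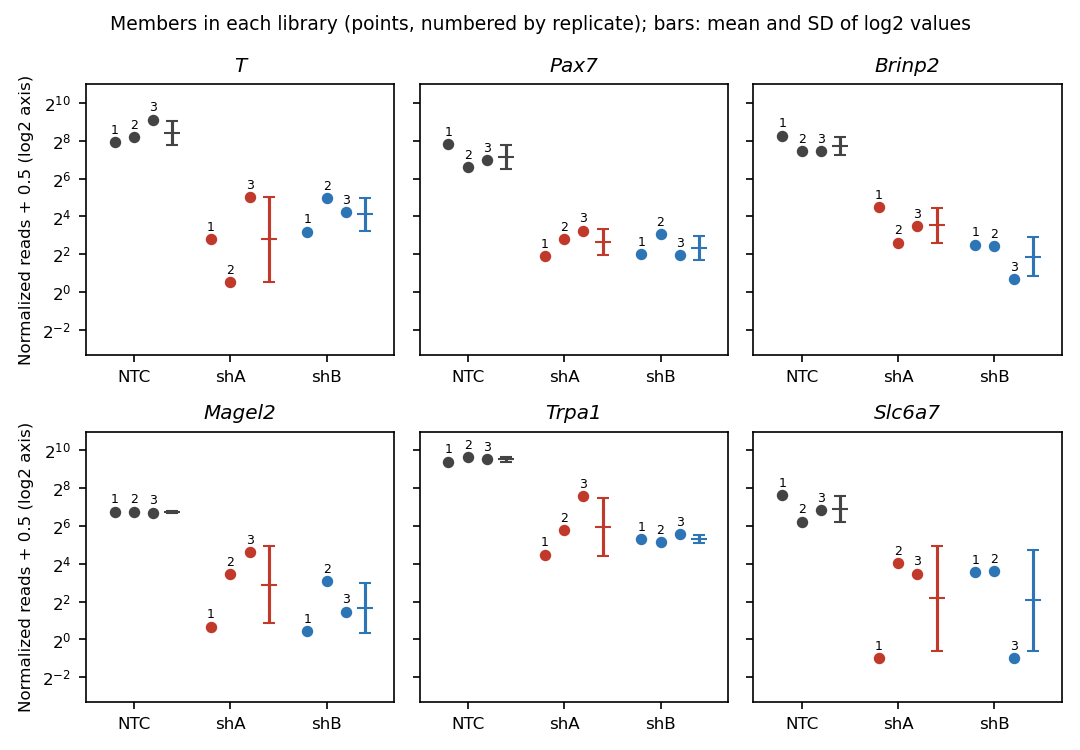
Normalized reads plus 0.5 (log2 axis) of each gene in each library, with points numbered by replicate and bars giving the mean and SD of the log2 values in NTC, shA and shB (n = 3 each). In every panel the 6 knockdown points lie below the 3 NTC points, and shA replicate 3 is the highest knockdown point for T, Pax7, Magel2 and Trpa1.

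Over the 6 genes, 26 of 36 knockdown values were below 20 normalized reads and 2 were 0, while the lowest of the 18 control values was 74.3. All 6 passed the filter of 20 normalized reads in 3 libraries, Pax7 and Slc6a7 through the controls alone. T, Brinp2 and Magel2 passed only with the controls added to 2, 1 and 1 knockdown libraries. The RNA was thus low in the knockdown tumours and was detected in all but those 2 values, some of them single reads. That these genes are active in few tissues is background and was not measured here. The knockdown means lay between 3.72% (Pax7) and 8.74% (Trpa1) of the control means. For comparison, all 6 knockdown libraries lay below all controls for 1986 of 14600 genes tested, 13.6%, and 25% of genes were called, 9.49% lower, for both shRNAs against NTC at a limma adjusted p under 0.05; the genes were chosen on this contrast, so nothing is read from their place in it. The highest knockdown library was shA replicate 3 for 4 of the 6 genes, shA replicate 1 for Brinp2 and shA replicate 2 for Slc6a7. Gad1 too was highest in shA replicate 3.

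Per kilobase of exon, which allows levels of different genes to be compared, the controls fell into a higher and a lower tier. Trpa1 stood at 171 ± 13.8 and T at 157 ± 72.6 normalized reads per kilobase (SD, n = 3), and these overlapped. Slc6a7 at 37.0 ± 17.7, Pax7 at 25.6 ± 11.7, Brinp2 at 25.01 ± 8.72 and Magel2 at 22.8 ± 0.51 overlapped one another, and the highest of their libraries, 56.3, was below the lowest library of T, 105. In knockdown tumours the mean levels per kilobase were 14.9 for Trpa1, 6.96 for T, 2.40 for Slc6a7, 1.66 for Magel2, 0.95 for Pax7 and 0.94 for Brinp2. These means hide the spread of T, which in shA replicate 2 was at 0.404 per kilobase, the lowest of the 6 genes in that library. That value is a single read. The lengths come from a GRCm38 annotation, whereas the submitters' processing notes name the build mm9.

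On the log2(value + 0.5) scale, the difference between NTC and the average of both shRNAs was -5.02 for Brinp2, -4.95 for T, -4.77 for Slc6a7, -4.64 for Pax7, -4.45 for Magel2 and -3.88 for Trpa1. These are 32.5-fold, 31.0-fold, 27.3-fold, 24.99-fold, 21.8-fold and 14.7-fold lower levels, and because many knockdown values rest on a few reads they depend on the added 0.5. Against the same controls, shA and shB gave -5.62 and -4.29 for T, -4.48 and -4.80 for Pax7, -4.20 and -5.84 for Brinp2, -3.83 and -5.07 for Magel2, -3.57 and -4.19 for Trpa1, and -4.72 and -4.83 for Slc6a7. As background, 17% of all genes were called with shA (5.59% lower) and 20.4% with shB (7.02% lower), which again used the contrast that chose the 6. For Slc6a7 the difference shrank to -3.98 without shA replicate 1 and to -4.01 without shB replicate 3, the tumours at 0.

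In the ranking that picked these genes, 1140 genes qualified: adjusted p under 0.05, a mean of at least 40 normalized reads and no overlap between knockdown and control libraries. The 6 genes held ranks 1 to 3 and 5 to 7 in it. Over all genes tested, without these conditions, they held ranks 1 to 3, 5, 6 and 9, and Gad1 rank 15. Rank 4, just inside, was Dkk4, a secreted Wnt inhibitor and not among the 6, at -4.71. Just beyond Trpa1 came the haemoglobin gene Hbb-bs at -3.75, the haem synthesis enzyme Alas2 at -3.66, the haemoglobin gene Hbb-bt at -3.63 and Gad1. The red cell genes were highest in NTC replicate 1, where Hbb-bs had 35335 normalized reads against 3815 and 2009 in the other controls. None of the 6 genes showed that pattern to the same degree: their highest control exceeded their lowest by 1.04-fold (Magel2) to 2.61-fold (Slc6a7).

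The comparison of shA with shB was not itself used to choose the genes, so it was tested. The choice did require low values with both shRNAs, which limits how far the shRNAs can differ. A lack of calls for the 6 genes therefore says little. Of the 6, only Trpa1 would have met the filter on the knockdown libraries alone. The others, Brinp2 included, were in this test only because of their control values. No gene of the 6 passed, and limma called 0 of 14600 genes (0%; 1010 had an unadjusted p under 0.05, edgeR called 0 and DESeq2 called 24). Brinp2 came closest, higher with shA by 1.64 on the log2 scale (SE 0.66, 95% interval 0.17 to 3.10, limma adjusted p = 0.680). It was the only gene of the 6 whose shA and shB libraries did not overlap, and 11.6% of all genes tested showed such a gap in one direction or the other. The nearest values, 5.61 in shA replicate 2 and 5.22 in shB replicate 1, were each 6 reads before scaling, so the gap rests on the library factors.

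The other 5 had wide intervals. The difference of shA minus shB was -1.34 for T (95% interval -3.51 to 0.83, adjusted p = 0.701) and 0.32 for Pax7 (-0.97 to 1.61, adjusted p = 0.863). It was 1.24 for Magel2 (-0.97 to 3.45, adjusted p = 0.711) and 0.62 for Trpa1 (-0.74 to 1.98, adjusted p = 0.752). For Slc6a7 it was 0.11, with an interval from -3.25 to 3.47 (adjusted p = 0.982). T, Brinp2 and Magel2 reached 20 normalized reads in only 2, 1 and 1 knockdown libraries, so they also entered the tested set through the controls. Pax7 and Slc6a7 did so through the controls alone. Pax7 had 3 to 11 reads in each knockdown library. Slc6a7 had 0, 17 and 13 with shA and 13, 12 and 0 with shB. The added 0.5 sets the log values of Slc6a7 at 0, so little can be read from its comparison of the shRNAs. The ratio of shA to shB could lie between 0.0880 and 1.78 for T, 0.511 and 3.06 for Pax7, 0.509 and 10.96 for Magel2, 0.598 and 3.94 for Trpa1, and 0.105 and 11.1 for Slc6a7, so the shRNAs are not shown to act alike on these genes. The sign for Trpa1 turned without shA replicate 3, and that for Slc6a7 without shA replicate 2, shA replicate 3 or shB replicate 3.

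**Figure D2:**
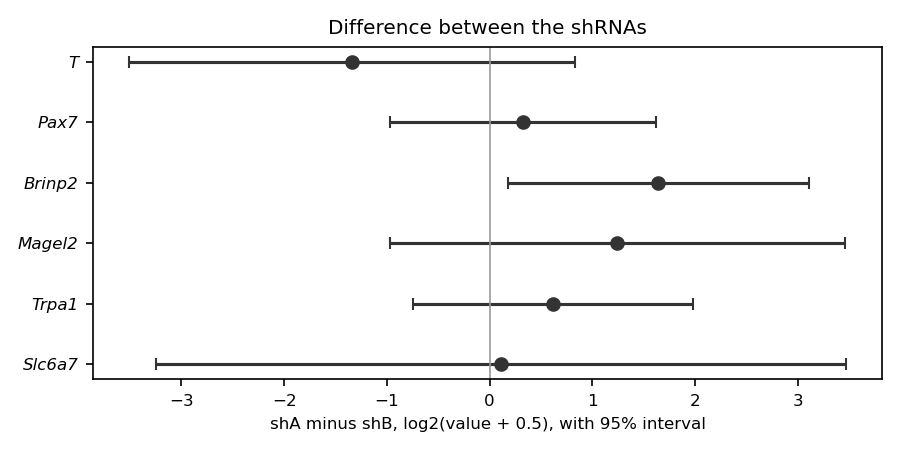
Difference of shA minus shB in log2(value + 0.5) for each gene, with points for the limma estimate and bars for the 95% interval. The interval of Brinp2, 0.17 to 3.10, is the only one that does not include 0 before adjustment, and Slc6a7 has the widest.

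Within the 6 knockdown tumours, with shA and shB pooled, the residual level of each gene was set against that of Gad1. These 6 relations were tested by exact permutation over 720 orders, which treats the 6 tumours as exchangeable. Pax7 gave a Pearson r of 0.86 (exact p = 0.00556, adjusted 0.0333) and a Spearman rank correlation of 0.83 (exact p = 0.0583, adjusted 0.175). Without shA replicate 3 and shB replicate 2, the tumours farthest from the median of Gad1, r dropped to 0.43, so the relation rests on those tumours. Pax7 had only 3, 7 and 11 reads with shA and 4, 8 and 3 with shB, so this relation is among values of a few reads and is not read as a finding. No other gene passed the adjustment: r was 0.81 for Magel2, 0.73 for Trpa1, 0.61 for Slc6a7, 0.60 for T and -0.20 for Brinp2, with adjusted exact permutation p-values of 0.163 to 0.744. The Spearman rank correlation was 0.77, 0.60, 0.17, 0.83 and -0.31 in the same order, with adjusted exact permutation p-values of 0.175 to 0.733. Leaving out those tumours gave r of 0.49, 0.96, 0.51, -0.07 and -0.86. Apart from Trpa1, these genes too entered the tested set only because of their control values. The knockdown libraries held 1 to 39 reads for T, 1 to 20 for Brinp2, 1 to 29 for Magel2 and 0 to 17 for Slc6a7. Neither a relation nor the lack of one is read from them.

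Genes related to the 6 by family or pathway were examined next, as 11 lists of 178 genes in all, of which 96 passed the filter. Against the background of 9.49% called lower and 15.5% called higher for both shRNAs versus NTC, each list is described by its counts and its median, and the median over all genes tested was -0.03. The background itself moved with the libraries: the 1386 genes called lower were 522, 647 and 643 without NTC replicate 1, 2 or 3, 897 without shB replicate 2 and 2498 without shB replicate 1. In the main fit no list had more than 3 genes that fell, and 8 of the 10 with a tested gene had genes called in both directions. The lists are small, and the share that fell ran from 0 of 2 Pax genes to 3 of 8 SLC6 transporters. The TRP channels had 4 lower genes without shA replicate 1. Without replicate 1 of every group, they and the MAGEL2 partners had 4 each. All adjusted p-values are from limma over all 14600 genes.

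Of the early mesoderm and tail bud genes that work with T, 14 of 30 were tested, 3 fell and 4 rose, with a median of 0.02. Fgf8, the growth factor of the primitive streak and tail bud, had 10712, 4960 and 4766 normalized reads in the controls, 1024, 1300 and 1093 with shA and 734, 756 and 786 with shB. It was lower in every knockdown tumour, by 6.82-fold (log2 -2.77, adjusted p = 0.000224). Nog, a secreted BMP antagonist of the notochord, went the other way, from 6.76, 15.1 and 32.6 normalized reads to between 71.9 and 666 (log2 3.93, adjusted p = 0.00144), and Mixl1, a homeobox factor of the primitive streak, rose by 7.50-fold (adjusted p = 0.00233). Cdx2, a caudal homeobox factor named after its values were seen, fell by 2.14 on the log2 scale (adjusted p = 0.0280), but lost its call without any 1 of the 3 controls.

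Of the other T-box factors 11 of 16 were tested, 2 fell and 5 rose, with a median of 0.71. Tbx2, a repressor active in limb and heart development, fell by 1.44 on the log2 scale (adjusted p = 0.000743) and Tbx4, a hindlimb factor, by 0.59 (adjusted p = 0.00421). Tbx3, the close relative of Tbx2, rose by 1.00 (adjusted p = 0.000864). Tbx21, the T-box factor of T helper type 1 and natural killer cells, was named after its values were seen; it rose by 4.02 (adjusted p = 0.0106), and the leukocyte markers given below rose beside it.

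Around Pax7, the only other Pax genes tested were Pax3, its closest relative, and Pax9. Pax3 had 533, 460 and 424 normalized reads in the controls and between 148 and 821 in the knockdown tumours, and it did not pass (log2 0.04, adjusted p = 0.956). Pax9, a factor of the pharyngeal pouches, did not pass either (0.30, adjusted p = 0.651). Of 26 genes of muscle progenitors and myogenesis, 14 were tested, 1 fell and 3 rose, with a median of 0.27. The Notch target Hey1 fell by 1.08 on the log2 scale (adjusted p = 0.00824), while the adhesion molecule Vcam1 rose by 3.10 (adjusted p = 0.000648) and the receptor Met by 1.77 (adjusted p = 0.000796). The relatives of Brinp2 were not among the listed genes, so they were not analysed here.

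For Magel2, 6 of 7 genes of its imprinted cluster were tested, 2 fell and 2 rose, with a median of 0.09. Mkrn3, a paternally expressed ubiquitin ligase gene next to Magel2, had 587, 553 and 467 normalized reads in the controls, 368, 236 and 216 with shA and 123, 163 and 188 with shB. It was lower in all 6 knockdown tumours, by 2.62-fold (adjusted p = 0.00175). Ndn, the paternally expressed gene on the other side of Magel2 and itself a MAGE family gene, rose from 9.01, 11.04 and 5.76 to between 21.3 and 86.1 (4.41-fold, adjusted p = 0.0108; 0.0518 without NTC replicate 3). Atp10a, a lipid flippase gene at the edge of the cluster, rose by 1.17 (adjusted p = 0.0351), a call lost without any of 5 libraries in turn: NTC replicates 1 or 3, shA replicates 2 or 3, or shB replicate 2. Of the tested MAGE family genes, Ndn included, 1 of 7 rose and 2 fell (median 0.04), and of the proteins that MAGEL2 works with 0 of 11 rose and 1 fell (median -0.18). Those that fell were the trophinin gene Tro (6.40-fold, adjusted p = 0.00273), Maged1 (log2 -0.40, adjusted p = 0.0381) and the WASH complex subunit Washc2 (-0.88, adjusted p = 0.0196), and Maged1 and Washc2 each lost the call without any 1 of the controls.

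Of the TRP channels 14 of 27 were tested, 2 fell and 3 rose, with a median of 0.13. Trpv2, Trpm2 and Trpv4, cation channels of which Trpv2 and Trpm2 are known from macrophages, rose by 2.32, 3.12 and 1.49 on the log2 scale (adjusted p = 0.000568, 0.00175 and 0.00212). Pkd2l1, a polycystin channel of acid-sensing cells named after its values were seen, fell by 8.21-fold (adjusted p = 0.00271), from 3500, 1356 and 1206 normalized reads to between 99.1 and 450.

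Of the transporters of the SLC6 family 8 of 19 were tested, 3 fell and 2 rose, with a median of 0.31. The amino acid transporter Slc6a14 rose by 2.05 on the log2 scale (adjusted p = 0.00416), and the creatine transporter Slc6a8 fell by 0.70 (adjusted p = 0.00522). The GABA and taurine transporters Slc6a13 and Slc6a6 differed by 0.65 and -0.64 (adjusted p = 0.0237 each), and both calls were lost without any 1 of the controls. Without NTC replicate 1 the family had 1 gene higher and 1 lower. Of 19 genes of proline transport and metabolism, 14 were tested, 1 fell and 2 rose, with a median of 0.05. Prodh, which starts proline breakdown, rose by 0.59 (adjusted p = 0.00903), the proline carrier Slc36a2 rose by 3.39 (adjusted p = 0.0150), and Pycr1, which completes proline synthesis, fell by 0.84 (adjusted p = 0.0128; 0.0688 without NTC replicate 1).

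**Figure D3:**
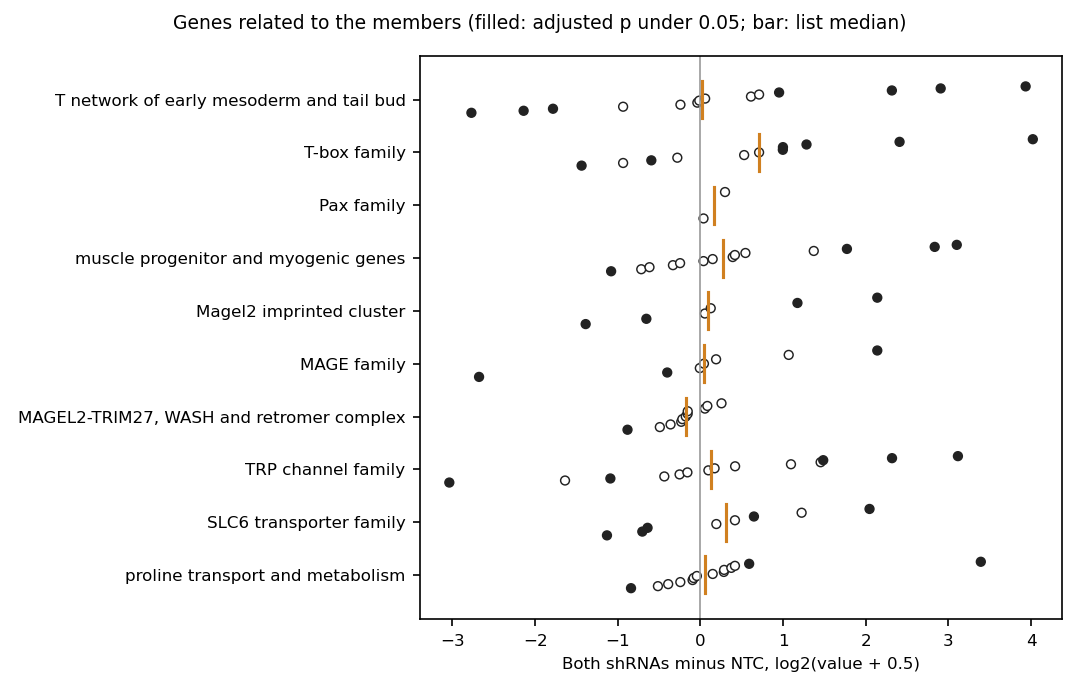
Difference of both shRNAs minus NTC in log2(value + 0.5) for each tested gene of the related lists, 1 row a list, with filled points for a limma adjusted p under 0.05 and a bar for the list median. Medians lie between -0.18 and 0.71, and 8 of the 10 lists with a tested gene hold filled points on both sides of 0.

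Genes beside the 6 on the chromosome were counted as well, by a rule chosen after the data had been seen: the nearest 5 tested protein-coding genes on each side. They lay up to 6145 kb away, and untested genes could lie between. Of these 60 neighbours, 9 were called lower and 13 higher, against 9.49% and 15.5% of all genes, and the median difference was 0.06. The count of lower neighbours was 1, 2 and 2 without NTC replicate 1, 2 or 3, and 5, 4 and 3 without shA replicate 3, shB replicate 2 or shB replicate 3.

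T on chromosome 17 had lower genes on both sides: Prr18 on one (log2 -1.03, adjusted p = 0.0276) and Pde10a, a phosphodiesterase gene, on the other (-1.48, adjusted p = 0.0178) were the nearest tested genes. The nearest tested neighbours of Pax7 on chromosome 4 were Aldh4a1, a proline breakdown enzyme (-0.39, adjusted p = 0.186), and Klhdc7a, which rose (1.96, adjusted p = 0.00145). Magel2 on chromosome 7 lay between Ndn, which rose, and Mkrn3, which fell, as given above. The nearest tested genes on the 2 sides of Slc6a7 on chromosome 18 were Camk2a (0.03, adjusted p = 0.944) and Pdgfrb (-0.66, adjusted p = 0.0427). Brinp2 and Trpa1, both on chromosome 1, had 1 and 0 lower and 3 and 1 higher genes of 10 neighbours. Among the higher was Tor3a (1.45), the farthest of the tested genes on its side of Brinp2, 1571 kb away. Another was Xkr9 (1.69), the nearest tested gene on one side of Trpa1 but 1170 kb away.

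**Figure D4:**
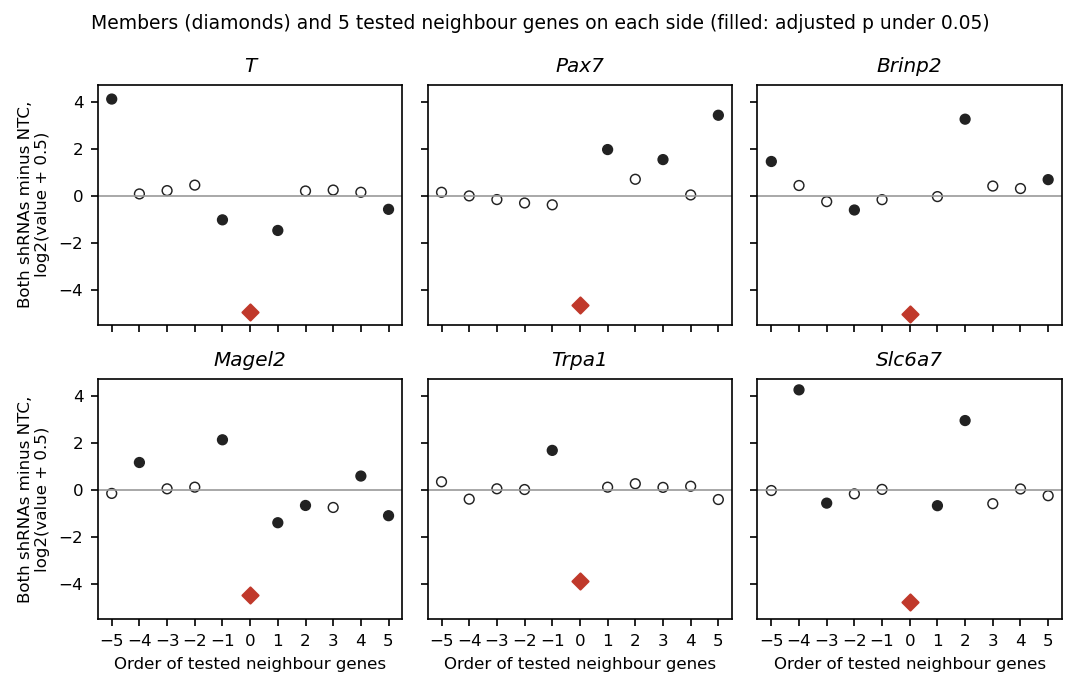
Difference of both shRNAs minus NTC in log2(value + 0.5) for the 5 nearest tested protein-coding genes on each side of each of the 6 genes, in chromosome order with no distances shown, and filled points for a limma adjusted p under 0.05. Lower and higher neighbours both occur, and the lowest, Pde10a beside T, was at -1.48.

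The genes whose pattern over the 9 libraries was most like each of the 6, by Pearson r of log2(value + 0.5), were Pxdn (r = 0.98) and Rbm20 (0.97) for T, Ptbp2 and Zfp647 (both 0.99) for Pax7, Clstn3 and Msi1 (both 0.97) for Brinp2, Snapin (0.99) and Map2k1 (0.98) for Magel2, Map2k1 and Nt5dc2 (both 0.98) for Trpa1, and Cpsf7 and Slc39a6 (both 0.99) for Slc6a7. Each r spans the step between control and knockdown libraries and is a description. Pxdn, a peroxidase of the extracellular matrix, went from 1704 ± 135 normalized reads (SD, n = 3) in the controls to a mean of 1084 in the knockdown tumours. Map2k1, the kinase MEK1, was shared by Magel2 and Trpa1 and went from 3868 ± 93.8 to 2914.

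Markers of the cells in which these genes are known were summed as well. The summed level of neuron markers, 7 of 16 listed, was 495 to 632 normalized reads in the controls and 269 to 423 in the knockdown tumours, and 2 of the 4 tested fell. Skeletal muscle fibre markers, 12 of 13 listed, summed to 219 to 418 in the controls and 218 to 11155 in the knockdown tumours, highest in shB replicate 1, where Pax7 had 3.48 normalized reads. These ranges overlapped, and 1 of 11 tested rose. Schwann cell and melanocyte markers, 4 of 10 listed, summed to 1675 to 1919 and 1192 to 1934, which overlapped, with 0 of 3 tested called.

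Leukocyte markers, 16 of 16 listed, all rose, from a sum of 3526 to 12620 in the controls to 74303 to 114290. Fibroblast markers, 10 of 10 listed, summed to 8279 to 13495 and 15239 to 37948, and red blood cell markers, 5 of 7 listed, to 3402 to 61042 and 176 to 2526. The epithelial and tumour cell markers, 12 of 12 listed, are general epithelial genes and were not defined from MC38. They summed to 35901 to 43462 in the controls and 41578 to 69578 in the knockdown tumours, with 2 called higher, 1 lower and 9 not passing. Endothelial markers, 8 of 8 listed, summed to 2575 to 3030 and 3133 to 11672, with none of 8 called. No listed marker was at 0 in every library. The part of these differences in the falls of the 6 genes was not tested.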

How the data were processed

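RNA-seq of 9 MC38 tumours gave 1 table per library. The deposited values are a signal: each count of reads was scaled by a factor common to its library, as read from the values themselves, which were whole multiples of 1 step within a tolerance of 0.001. The submitters' processing notes name Cuffdiff 2.2.1 and mm9 without their roles. No source used here gives the aligner or the strand setting of the counting, so overlapping and antisense genes are uncertain. Per the labels' protocols, total RNA was taken on day 20 and a NEBNext Ultra kit was used.

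The unit was none of those the design had allowed for, so limma 3.58.1 in R 4.3.3 was fitted to log2(value + 0.5) of all 9 libraries, with a trended prior and Benjamini-Hochberg adjustment over the 14600 genes that had 20 normalized reads in 3 libraries. Both shRNAs versus NTC compares NTC with the mean of the shA and shB means. Reads recovered from the steps were tested with edgeR 4.0.16 and DESeq2 1.42.0 as alternatives. Libraries of a group differed from each other beyond counting error (chi-square over its degrees of freedom at least 7.81). The fit was first tested on simulated counts. Chromosomes and neighbours come from a GRCm38 annotation by gene name, and upstream windows from RefSeq (GRCm38.p6).

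The members, the lists and the rules were chosen with earlier results of these data known. Named genes are the 6, Gad1, up to 3 called genes of smallest p per list (or the 2 most abundant), the fallers ranked down to 4 past the last of the 6, and the 2 genes most like each. Replicates were numbered by the labels; correlations of same-numbered deviations ran from -0.34 to 0.06, so the numbers were not taken to pair the samples. Alternatives were the pseudocount, filter, scaling, tool, prior, replicate block and the libraries included.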

Additional observations from a re-analysis of the deposited data

How the results depend on the processing

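The 6 genes were chosen on the difference between both shRNAs and NTC, and their knockdown and control libraries do not overlap. Its sign therefore could not turn when libraries were left out or the pseudocount was changed. The changed filters, the robust prior and the replicate block leave its value as it is. All 114 combinations of gene and alternative kept the sign, which is a description and no support. Each stayed within 1 SD of the main value, where the SD is that of the gene's log2 values within groups, pooled. This SD ran from 0.65 for Pax7 to 1.44 for T and 2.25 for Slc6a7, so for the latter it is a loose limit. The difference ran from -5.51 to -4.39 for T, -4.91 to -4.02 for Pax7 and -5.26 to -4.66 for Brinp2. For Magel2 it ran from -4.87 to -3.58, for Trpa1 from -4.28 to -3.52 and for Slc6a7 from -5.57 to -3.88. Without replicate 1 of every group, Pax7, Magel2 and Slc6a7 stood at -4.02, -3.58 and -4.00. Slc6a7 also stood at -3.88 with edgeR, -3.93 with DESeq2 and -5.57 with a pseudocount of 0.1. The comparison of shA with shB called none of the 6 genes under any of 20 alternatives; of 120 combinations, 4 had the opposite sign. These were Trpa1 at -0.19 without shA replicate 3, and Slc6a7 at -0.82 without shA replicate 2, -0.54 without shA replicate 3 and -1.42 without shB replicate 3; leaving out 1 library at a time gave -0.19 to 1.35 for Trpa1 and -1.42 to 1.70 for Slc6a7.

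The number of genes called over the whole table depended on the libraries. Leaving out 1 library at a time gave 2005 to 5498 against 3644 for both shRNAs versus NTC, 1268 to 3992 against 2478 for shA, 1835 to 4237 against 2983 for shB, and 0 to 1 against 0 for shA versus shB. The lowest counts against NTC were without NTC replicate 1, and the highest without shB replicate 1. Counts also moved by over 1.5 times without NTC replicate 3 (2352 for both shRNAs, 1552 for shA), NTC replicate 2 (1576 for shA), shB replicate 2 (1859 for shB) and shB replicate 3 (1895 for shB). Without replicate 1 of every group the counts were 6361, 3930, 6526 and 13, and DESeq2 called 24 genes between shA and shB. Where an arm keeps 2 libraries, its spread is assumed to be like that of the other groups. The causes were not tested.

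With the replicate block, both shRNAs versus NTC called 2921 genes, 2001 higher and 920 lower against 2258 and 1386 without it, and 4 lower neighbours against 9. Libraries correlated best with their own number in 4 of 18 settings against another group. Calls of Cdx2, Maged1, Peg12, Slc6a13 and Slc6a9 were lost under the block.

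Of the 6 genes, 3 had 3 reads or fewer in shA replicate 1, 4 in shB replicate 3, and 1 each in shA replicate 2 and shB replicate 1. The fold of such a gene is a fitted value that moves with the pseudocount, and not a bound.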
